A study of Mus musculus with 40 samples.

Results

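Chemokines are small secreted proteins that bind heparan sulfate on cell surfaces and matrix and guide leukocytes through G protein-coupled receptors. They are grouped by the spacing of a pair of cysteines near the amino terminus (CC, CXC, CX3C), and their receptors are named after the ligands they bind. Atypical receptors bind chemokines without activating G proteins and remove or redistribute them. In the pressure-overloaded heart the family is best known for the recruitment of monocytes, T cells and dendritic cells.

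The genes were taken by symbol from the deposited table: names beginning Ccl, Cxcl, Cx3cl, Ccr, Cxcr, Cx3cr, Xcr or Ackr followed by a digit, plus Ppbp (Cxcl7) and Pf4 (Cxcl4). Of 22676 genes in the table, 57 met that rule, and 44 of them reached a normalized count of at least 10 in at least 5 of 40 libraries. The 44 were 18 CC ligands, 10 CXC ligands, the CX3C ligand, 4 CC receptors, 5 CXC receptors, 2 receptors of the CX3C and XC type and 4 atypical receptors. The 13 genes below the minimum were Ccl1, Ccl3, Ccl4, Ccl17, the pseudogene Ccl19-ps4, Ccr3, Ccr4, Ccr6, Ccr8, Ccr9, Ccr10, Cxcl2 and Cxcl11. Cxcr2 was just inside, with 5 libraries at 10 or more, and Ccl4 was just outside, with 4. Of the 44, 42 had libraries at 10 or more in all 4 conditions. Without 1 of the conditions 5 would fall below the minimum, namely Ccl22, Cxcl10, Cxcl13, Cxcr2 and Cxcr5.

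The study sequenced left ventricle RNA from FVB/NJ mice of both sexes, crossing genotype (Con or ONOFF) with surgery, either sham or TAC (transverse aortic constriction, in which a narrowed aorta imposes pressure overload). ONOFF mice carried an inducible, heart-restricted dominant-negative OGA, the enzyme that removes O-GlcNAc from proteins. Con mice are labelled only as controls, and the labels' treatment text gives both genotypes doxycycline food for 2 weeks and standard chow for the next 2 weeks before surgery. Tissue was taken after 9 weeks of TAC or sham, so every condition shares the drug and its withdrawal. The promoter that drives the transgene and the ages of the mice are not given in the sources used here. Each condition held 10 libraries, 5 per sex.

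Values are normalized counts, which carry no read depth. In 3 Con Sham libraries (F 3, F 5 and M 4, where the letter is the sex and the number the replicate) 5782 to 6920 genes were at 0, against 2635 to 4594 in the other libraries. Con TAC F 2 and F 3 had Xist at 51.7 and 6.72, against 1123 to 3274 in the other females, and their Y-linked sum was within the female range of 8.2 to 72.9. Oga, the gene of that enzyme, was at 2644 to 3507 in Con Sham and 3019 to 8294 in ONOFF Sham libraries (log2 difference 0.83, adjusted p = 0.000295 by limma). With TAC it fell in ONOFF mice (log2 -0.56, adjusted p = 0.000413). After TAC the difference between ONOFF and Con mice was 0.34 and not called (adjusted p = 0.0645). The cardiomyocyte marker Myh6 was at 642320 or more in every library. Where a call on a named chemokine gene was lost without some or all of these 5 libraries, this is said. The gene lists were tested over all 40 libraries only. In bulk tissue, fewer cells of a type and less RNA per cell cannot be told apart.

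The coding stretches around the paired cysteines show how 5 called ligands, and Pf4 for comparison with its neighbour Ppbp, are classed. Ccl11 is not shown. Each is read 5′ to 3′ from the mouse reference transcripts (GENCODE M21, GRCm38), and capitals mark the paired cysteine codons. The reference is not the FVB/NJ genome.
Ccl22: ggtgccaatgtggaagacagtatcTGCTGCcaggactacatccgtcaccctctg
Ccl27a: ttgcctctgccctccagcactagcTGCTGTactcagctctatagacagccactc
Cxcl12: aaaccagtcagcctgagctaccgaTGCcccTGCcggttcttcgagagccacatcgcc
Ppbp: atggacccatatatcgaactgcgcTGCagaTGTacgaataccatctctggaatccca
Pf4: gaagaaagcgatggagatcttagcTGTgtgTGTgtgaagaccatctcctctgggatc
Cx3cl1: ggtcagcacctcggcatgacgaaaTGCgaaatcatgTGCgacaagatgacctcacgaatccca
The codons adjoin in the CC ligands Ccl22 and Ccl27a, have 1 codon between them in Cxcl12, Ppbp and Pf4, and have 3 between them in Cx3cl1. The coding sequence is 279 bases long for Ccl22 and 1188 bases for Cx3cl1, the fractalkine gene, whose protein also has a mucin stalk and a membrane anchor.

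The 5 comparisons were TAC against sham in each genotype, ONOFF against Con after each surgery, and the difference between the genotypes' TAC effects. Each averaged the sexes equally in 1 limma fit over 16395 genes on log2(value + 1), with Benjamini-Hochberg adjustment over all of them, and a gene was called when its adjusted p fell below 0.05. TAC in Con mice called 1 higher and 1 lower chemokine gene of 44 (4.55%), beside 5.78% of all genes (3.17% higher and 2.62% lower). TAC in ONOFF mice called 4 higher and 2 lower (13.6%), beside 21.2% of all genes (10.7% higher and 10.6% lower). ONOFF against Con after sham called 1 higher gene (2.27%), beside 0.14% of all genes (0.116% higher and 0.0244% lower). After TAC the same genotype comparison called 3 higher and 4 lower genes (15.9%), beside 7.97% of all genes (4.14% higher and 3.82% lower). The difference between TAC effects called 0 of 44 by limma, with 8 at an unadjusted p below 0.05, beside 0.445% of all genes called (0.238% higher and 0.207% lower). The last background share, 73 genes, moved to between 9 (without ONOFF TAC F 5) and 250 (without ONOFF TAC F 1) when 1 library was left out, and that after sham, 23 genes, to between 3 (without ONOFF Sham F 4) and 49 (without Con Sham F 2). The comparisons share libraries, so their calls are not independent of each other. In all, 10 genes were called in at least 1 comparison and 34 in none.

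**Figure D1:**
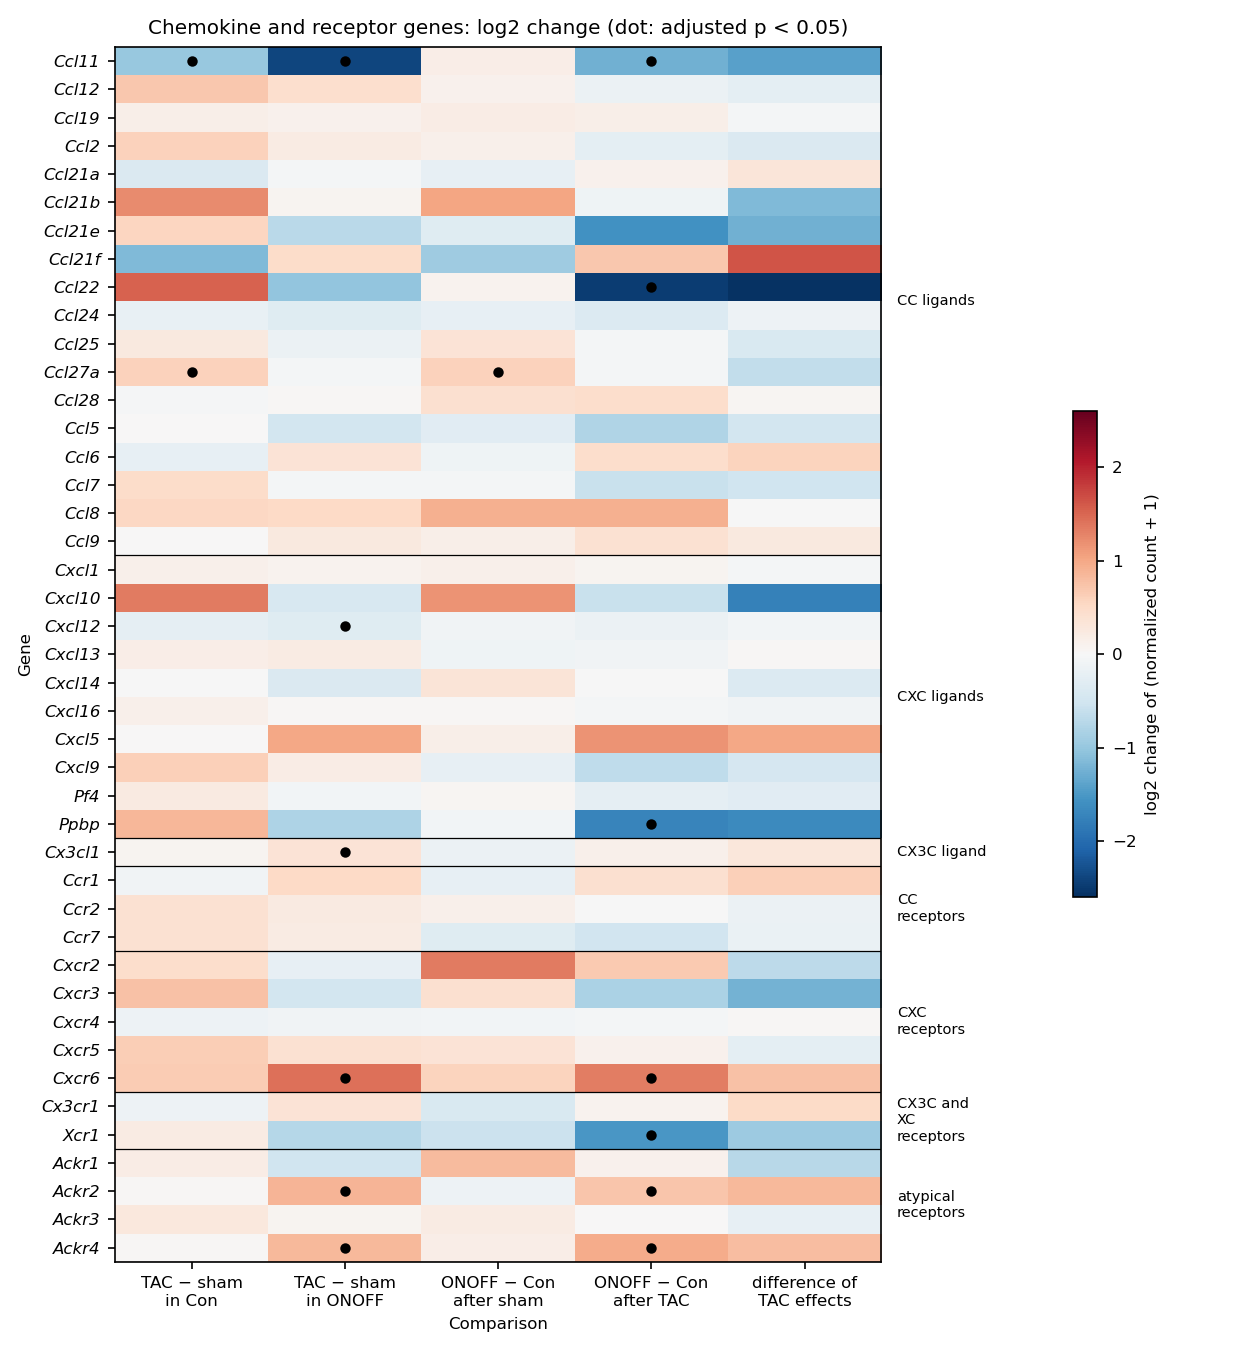
Log2 change of 43 of the 44 chemokine and chemokine receptor genes (rows, grouped by role) in 5 comparisons (columns), with red higher, blue lower and a black dot where limma's adjusted p was below 0.05. The dots fall on 10 genes, with Ccl11 marked in 3 columns and Ccl27a in the 2 columns where Con Sham is the reference.

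Ccl11 (eotaxin-1), a CC ligand that draws eosinophils through Ccr3, was lower after TAC in both genotypes. The level in Con Sham libraries ran from 44.5 through a median of 117 to 218, and in ONOFF Sham libraries from 63.9 through 117 to 307. After TAC it ran from 26 through 52.1 to 145 in Con mice and from 9.75 through 23.4 to 72.2 in ONOFF mice. The sham conditions covered nearly the same span, Con TAC lay lower with an overlapping range, and ONOFF TAC was lowest, with 3 libraries (72.2, 29.4 and 27.2) inside the Con TAC range. The mean normalized count was 120 ± 57.2 in Con Sham, 60.2 ± 34.7 in Con TAC, 134 ± 71.1 in ONOFF Sham and 25.7 ± 17.6 in ONOFF TAC (SD, n = 10 each).

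The TAC effect on Ccl11 in ONOFF mice was a 5.26-fold fall (log2 change -2.39, SE 0.262, adjusted p = 8.62e-09), with 10 of 10 libraries below the sham mean of their sex. In Con mice it fell by 0.98 on the log2 scale (SE 0.262, adjusted p = 0.0184), also with 10 of 10 libraries on that side. The call was lost but the change stayed about as large without the 3 zero-rich Con Sham libraries (log2 -0.92, adjusted p = 0.0577), without the 2 Xist-poor Con TAC libraries (-0.98, adjusted p = 0.0501) and without all 5 (-0.91, adjusted p = 0.102). Without Con TAC M 2 alone it was -0.85 (adjusted p = 0.0507). After TAC, Ccl11 was 2.36-fold lower in ONOFF than in Con mice (log2 -1.24, adjusted p = 0.00191, 9 of 10 libraries). After sham the genotypes differed by 0.17 (adjusted p = 0.921). The difference between TAC effects was -1.41 (SE 0.37) with an adjusted p of 0.0678, so a larger fall in ONOFF mice did not pass the test. It passed without Con TAC M 2 (0.0292), without ONOFF TAC F 1 (0.00718), and without the 5 libraries named above (0.0491).

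Both sexes had lower Ccl11 after TAC in ONOFF mice, with a log2 change of -1.90 in females and -2.89 in males (adjusted p = 0.000649 and 8.16e-07). The male minus female difference of that effect was -0.98 with an adjusted p of 0.816. In Con Sham libraries the level was 128 to 218 in males and 44.5 to 106 in females. ONOFF Sham libraries were close to this, at 116 to 307 in males and 63.9 to 117 in females. After TAC the sexes overlapped in both genotypes. A sex difference in level was not tested.

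Ccl11 lies on chromosome 11 in a row of CC ligands, in the order Ccl2, Ccl7, Ccl11, Ccl12 and Ccl8 (RefSeq). These neighbours are monocyte and leukocyte attractants, and none was called in any comparison. For TAC in ONOFF mice the log2 change was 0.21 for Ccl2 (95% interval -0.30 to 0.72), -0.05 for Ccl7 (-0.54 to 0.45), 0.43 for Ccl12 (-0.41 to 1.27) and 0.53 for Ccl8 (-0.29 to 1.35). Those intervals do not reach the change of Ccl11. In Con mice Ccl2, the main ligand of Ccr2, had a log2 change of 0.60 after TAC (adjusted p = 0.159), with medians of 73.5 in sham and 116 in TAC libraries. Ccl8 had a log2 difference of 0.92 between ONOFF and Con mice after both surgeries, with adjusted p of 0.496 after sham and 0.173 after TAC.

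Of genes that mark the cells known to answer Ccl11, Ccr3 and Siglecf had low values. Ccr3 had condition medians of 0 to 0.389 and did not reach the minimum. Siglecf, an eosinophil marker, was also below the minimum and at 0 in 20 of 40 libraries, and 3 other listed eosinophil genes are not analysed here. The 5 listed eosinophil and mast cell markers that could be tested mark mast cells, not eosinophils. With TAC in ONOFF mice, where 10.6% of all genes were called lower, 2 of these 5 fell. They were the mast cell proteases Mcpt4 (log2 -2.47, adjusted p = 0.000233) and Cma1 (-1.21, adjusted p = 0.0166), with levels at 0 in 5 and 1 of 40 libraries. The summed markers ran from 156 to 400 in ONOFF Sham and from 75.6 to 390 in ONOFF TAC libraries. Most of that sum came from Kit, with a median of 198 over all libraries, beside 8.51 for Mcpt4 and 6.31 for Cma1. The part of eosinophils and mast cells in the fall of Ccl11 was not tested. Fibroblasts are a known source of Ccl11, and 6 of 12 fibroblast markers rose while 2 fell in the same comparison, with Mfap5 at 1.32 and Scara5 at -0.87. Of all genes, 10.7% were called higher and 10.6% lower there.

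**Figure D2:**
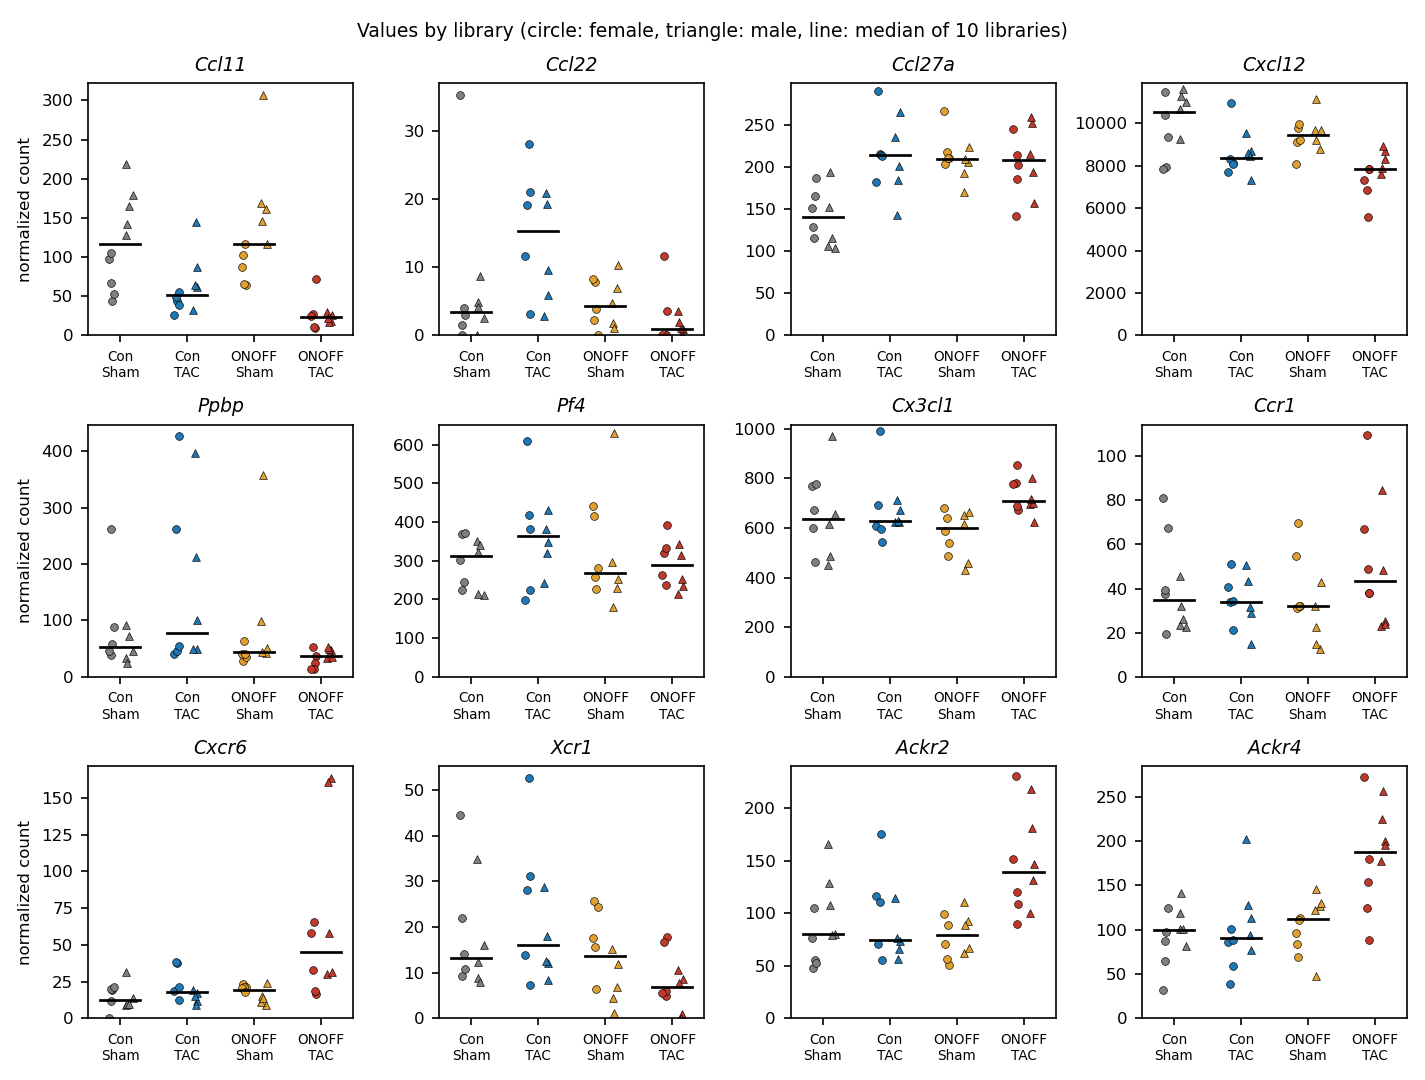
Normalized counts (linear axes from 0) of 12 chemokine and receptor genes in 40 libraries, by condition, with circles for females, triangles for males and a line at the median of 10 libraries. Ccl11 is lowest in ONOFF TAC (median 23.4), Con Sham lies below the other conditions for Ccl27a (median 140), and ONOFF TAC lies above them for Ackr2 and Ackr4 (medians 139 and 188).

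Ccl27a (Ctack), a CC ligand that attracts skin-homing T cells through Ccr10, was lower in Con Sham than in the other 3 conditions. Its level ran from 104 through a median of 140 to 194 in Con Sham libraries. The other conditions had medians of 214 in Con TAC (143 to 291), 210 in ONOFF Sham (170 to 267) and 208 in ONOFF TAC (142 to 260). Ranges overlapped between every pair of conditions.

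Ccl27a rose 1.51-fold with TAC in Con mice (log2 0.60, SE 0.127, adjusted p = 0.00271, 10 of 10 libraries). In ONOFF mice the TAC effect was -0.05 (95% interval -0.30 to 0.21, adjusted p = 0.85). After sham it was 1.51-fold higher in ONOFF than in Con mice (log2 0.59, adjusted p = 0.0379, 10 of 10 libraries), and both calls use the same 10 Con Sham libraries. The call after sham was lost without the 3 zero-rich Con Sham libraries (log2 0.62, adjusted p = 0.131) and in 15 of 40 omissions of 1 library (log2 0.55 to 0.62), with a difference about as large as over all libraries. The difference between TAC effects was -0.64 with an adjusted p of 0.0913, which became 0.0469 without Con Sham M 3. Ccl27a overlaps Il11ra1 on the opposite strand in the reference annotation, and Il11ra1 had changes of 0.16 in Con mice after TAC and 0.01 between genotypes after sham, neither called. The kit was stranded per the labels, and the counting by strand is not given in the sources used here. Ccr10 was below the minimum.

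Ccl22 (Mdc) is made by dendritic cells and macrophages and attracts regulatory T cells through Ccr4. Its level was 0 to 35.3 in Con Sham (median 3.5), 2.77 to 28.2 in Con TAC (median 15.4), 0 to 10.3 in ONOFF Sham (median 4.34) and 0 to 11.7 in ONOFF TAC (median 0.962). It was listed at 0 in 4 of 10 ONOFF TAC libraries and in no Con TAC library. After TAC it was lower in ONOFF than in Con mice by a log2 change of -2.48 (SE 0.579, adjusted p = 0.00496, 10 of 10 libraries), on a scale that understates changes of low values. Con TAC held 6 of the 9 libraries in which Ccl22 reached 10, so the gene was tested only because of the condition where it was high, and this call is a description rather than an independent test. The TAC effect was 1.54 in Con and -1.03 in ONOFF mice (adjusted p = 0.108 and 0.224), and the difference between them was -2.57 (adjusted p = 0.158). Ccr4 and Ccl17, its receptor and the other ligand of that receptor, were below the minimum.

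The other 15 CC ligands were called in no comparison. Ccl21a, which brings dendritic and T cells to lymphatic vessels through Ccr7, had condition medians of 974 to 1429, and its near-identical copies Ccl21b, Ccl21e and Ccl21f were at 0 in many libraries, so reads may be split among them. Ccl6 and Ccl9, macrophage-derived ligands of Ccr1 in mice, had medians of 192 to 248 and 140 to 228. Ccl24 (eotaxin-2), which shares Ccr3 with Ccl11, had medians of 45.7 to 73.3, with a log2 change of -0.32 after TAC in ONOFF mice (adjusted p = 0.404). Ccl5, a T cell and platelet chemokine, had medians of 10.6 to 23.5. Ccl19, Ccl25 and Ccl28 had medians of 6.89 to 9.33, 35.6 to 47.1 and 13.0 to 21.2.

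Among CXC ligands, Cxcl12 (Sdf1), the ligand of Cxcr4 and Ackr3, fell with TAC in ONOFF mice. Its normalized count was 8096 to 11174 in ONOFF Sham (median 9452) and 5561 to 8957 in ONOFF TAC libraries (median 7853). All 10 ONOFF TAC libraries lay below the sham mean of their sex although the ranges overlapped. The log2 change was -0.31 (SE 0.075, adjusted p = 0.00221). In Con mice it was -0.23 (adjusted p = 0.0595), and it was -0.27 (adjusted p = 0.0198) without Con TAC F 2 and -0.34 (adjusted p = 0.0124) without the 5 libraries set apart above. The difference between these effects was -0.08 (adjusted p = 0.846). Cxcr4 had medians of 180 to 219 and Ackr3 of 4344 to 5405, and neither was called.

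Ppbp, the precursor of the platelet chemokine Nap-2 that acts on neutrophils through Cxcr2, was lower in ONOFF than in Con mice after TAC. Its level ran from 24 through a median of 52.1 to 262 in Con Sham and from 41.3 through 77.7 to 427 in Con TAC libraries. In ONOFF mice it ran from 28.9 through 43.3 to 358 after sham and from 13.1 through 36.2 to 53.0 after TAC. A single library stood far above the rest in each sham condition, 4 of 10 Con TAC libraries lay at 213 or more, and every ONOFF TAC library lay at 53.0 or less. The ranges overlapped, with Con TAC libraries at 41.3, 45.4, 48.5 and 50.1 inside the ONOFF TAC range. The genotype difference after TAC was 3.29-fold (log2 -1.72, SE 0.437, adjusted p = 0.0101, 10 of 10 libraries). That call held in all 53 alternatives and omissions, those without the Xist-poor libraries included, with adjusted p of up to 0.0283 by limma. TAC itself gave 0.86 in Con and -0.80 in ONOFF mice (adjusted p = 0.272 and 0.209), and the difference between these was -1.66 (adjusted p = 0.244).

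The 4 libraries with the highest sums of 14 platelet and megakaryocyte markers also had the highest Ppbp. Con TAC F 3 had Ppbp at 427 and a marker sum of 1592. Con TAC M 4 had 397 and 1134, ONOFF Sham M 4 had 358 and 1349, and Con Sham F 4 had 262 and 1042. Con TAC F 4 came close in Ppbp, at 261, with a lower marker sum of 773. At a similar sum of 761, Con Sham F 5 had Ppbp at 89.1. The marker sum ran from 297 to 1592 in Con TAC (median 488) and from 274 to 528 in ONOFF TAC libraries (median 357). Of 12 markers tested, 0 were higher and 4 were lower in ONOFF than in Con mice after TAC, with a median log2 difference of -1.16 beside -0.0007 over all genes. That comparison called 3.82% of all genes lower. The 4 were the platelet genes Nrgn (-1.25), Rgs18 (-1.15), the collagen receptor Gp6 (-1.88) and Treml1 (-1.71), with adjusted p of 0.016 to 0.0316. Gp6 was at 0 in 6 of 40 libraries, while Itga2b, the platelet integrin chain, was at 20.2 or more in each. The marker tests used all 40 libraries, the 2 Xist-poor ones included. The part of platelets in the Ppbp difference was not tested.

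**Figure D3:**
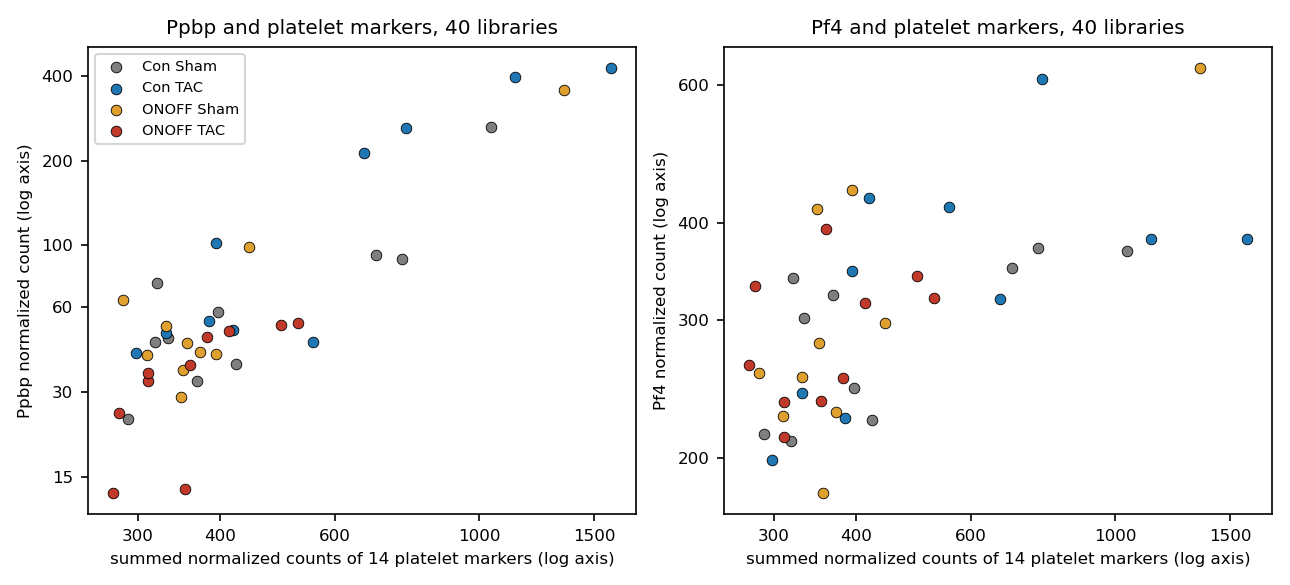
Normalized counts of Ppbp (left) and Pf4 (right) against the summed normalized counts of 14 platelet markers that exclude both genes, on log axes, 1 point per library. The 4 libraries with marker sums of 1042 to 1592 have Ppbp at 262 to 427, and the ONOFF TAC libraries lie at 53.0 or less for Ppbp and 528 or less for the sum.

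Pf4, the other platelet chemokine and also a product of macrophages, was called in no comparison. Its medians ran from 269 to 364, and the ONOFF against Con difference after TAC was -0.24 (95% interval -0.62 to 0.14, adjusted p = 0.526). Ppbp and Pf4 are adjacent on chromosome 5, after Cxcl5, a neutrophil attractant that had a difference of 1.16 (adjusted p = 0.133) in the same comparison. The 100 bases before the annotated start of each (RefSeq, GRCm38.p6, plus strand) are shown because these adjacent genes had unlike values, with capitals for TATAAA.
Ppbp, chr5:90768418-90768517: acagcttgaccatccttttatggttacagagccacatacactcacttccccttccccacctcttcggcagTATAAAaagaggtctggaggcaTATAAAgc
Pf4, chr5:90772335-90772434: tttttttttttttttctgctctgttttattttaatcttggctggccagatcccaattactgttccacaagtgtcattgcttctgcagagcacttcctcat
Promoter windows ran from 250 bases before to 50 after the start. TATAAA, searched on both strands, occurred in 13.6% of 32851 RefSeq windows. Of the 32 chemokine genes that had a window, 12 held it in at least 1, a count of genes rather than windows. AGATAA, which GATA factors bind, occurred in 11.2% of windows and in 6 of the 32 genes, Pf4 included. In Pf4 it lies after the start, outside the bases shown. These motifs do not overlap each other in the Ppbp and Pf4 windows, and a match is a description of letters only.

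The other CXC ligands were not called. Cxcl9 and Cxcl10, interferon-induced ligands of Cxcr3, had medians of 26.4 to 59.0 and 0.809 to 4.61. Cxcl14 had medians of 643 to 1071 and Cxcl16 of 387 to 424. Cxcl1, a neutrophil attractant, had medians of 26 to 31.2. Cxcl13, the B cell attractant, had medians of 3.24 to 4.65.

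Cx3cl1, the membrane-bound ligand that endothelium and neurons make for Cx3cr1, rose with TAC in ONOFF mice. It ran from 431 through a median of 601 to 681 in ONOFF Sham and from 623 through 709 to 852 in ONOFF TAC libraries. The log2 change was 0.36 (SE 0.115, adjusted p = 0.0221, 10 of 10 libraries), and it lost the call without ONOFF Sham M 1 or M 4 (adjusted p = 0.0517 and 0.0545). In Con mice the change was 0.07 (adjusted p = 0.796), and the difference between the effects was 0.29 (adjusted p = 0.53). Cx3cr1, its receptor on resident macrophages and monocytes, had medians of 247 to 344 and was not called. Cx3cl1 follows Ccl22 on chromosome 8. For ONOFF against Con after TAC, where Ccl22 was called lower, Cx3cl1 differed by 0.14 (adjusted p = 0.549).

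**Figure D4:**
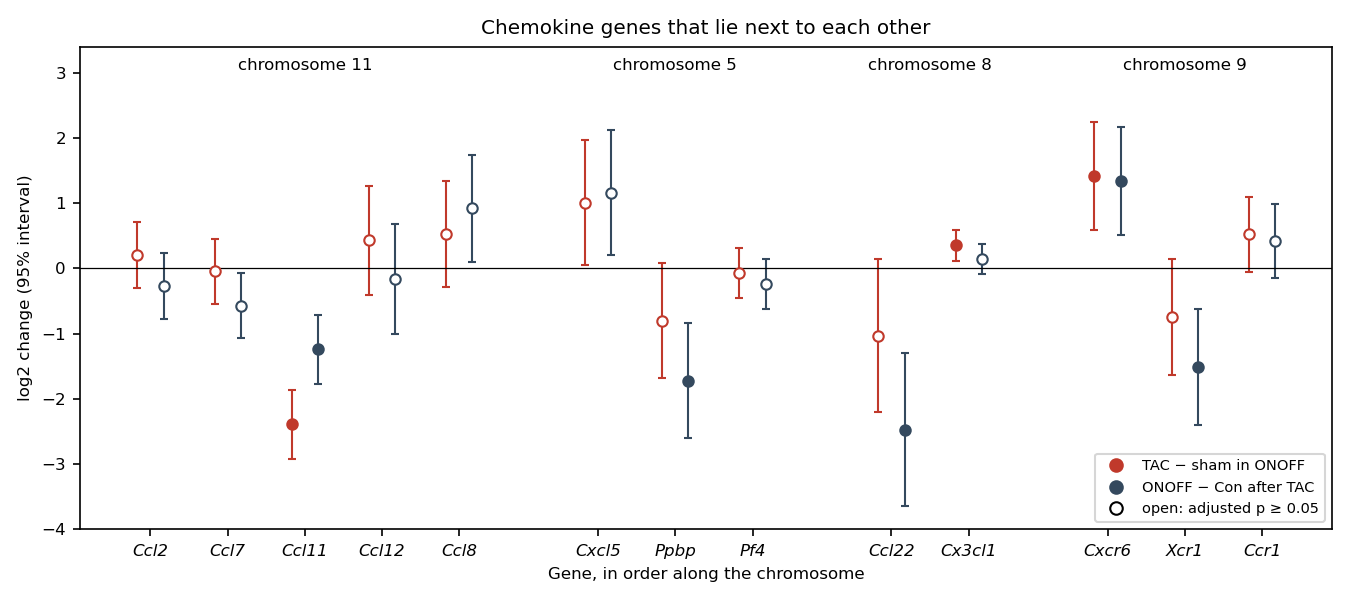
Log2 change with its 95% interval for chemokine genes that lie next to each other on 4 chromosomes, for TAC against sham in ONOFF mice (red) and ONOFF against Con mice after TAC (dark), with filled points where the adjusted p was below 0.05. Ccl11 lies at -2.39 between neighbours at -0.05 and 0.43, and Cxcr6 lies at 1.34 beside Xcr1 at -1.51 in the genotype comparison.

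Of the 9 CC and CXC receptors, only Cxcr6 was called in these 5 comparisons. Cxcr6 is the receptor for Cxcl16 on tissue T cells, natural killer T cells and innate lymphoid cells. Its level ran from 0 through a median of 12.7 to 31.2 in Con Sham, from 9.05 through 17.9 to 38.2 in Con TAC, and from 9.2 through 19.4 to 23.8 in ONOFF Sham libraries. In ONOFF TAC it ran from 16.7 through 45.4 to 163. The low ONOFF TAC libraries overlapped the other conditions, and the male libraries at 163 and 161 stood far above them.

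TAC raised Cxcr6 in ONOFF mice by 1.43 on the log2 scale (SE 0.409, adjusted p = 0.00925, 8 of 10 libraries). After TAC it was 1.34 higher in ONOFF than in Con mice (adjusted p = 0.0355, 8 of 10 libraries), and that call was lost in 10 of 40 omissions of 1 library, with adjusted p of up to 0.0837 without ONOFF TAC M 3. In males the TAC effect in ONOFF mice was 2.22 (adjusted p = 0.00784) and in females 0.64 (adjusted p = 0.54). The male minus female difference of 1.58 had an adjusted p of 0.816, so the sexes were not shown to differ. Cxcl16 had a TAC effect of 0.03 in ONOFF mice (95% interval -0.19 to 0.25).

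No lymphocyte marker was called higher beside Cxcr6. Of 14 T, NK and B cell markers, 0 were higher and 1 was lower after TAC in ONOFF mice, the T cell receptor chain gene Cd3g (log2 -1.29, adjusted p = 0.0113). That comparison called 10.7% of all genes higher and 10.6% lower. For ONOFF against Con after TAC 0 of 14 were called by limma. The summed level was 123 to 888 in Con TAC (median 235) and 95.5 to 237 in ONOFF TAC libraries (median 154). Cxcr6 overlaps Fyco1 on the opposite strand. Fyco1 fell with TAC in both genotypes, by 0.50 in Con (adjusted p = 0.0173) and by 0.59 in ONOFF mice (adjusted p = 0.000896) on the log2 scale, opposite to Cxcr6 in the ONOFF comparison.

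The remaining CC and CXC receptors had no call. Ccr1, a receptor of myeloid cells, had medians of 32.1 to 43.3 with single libraries up to 110, and a TAC effect of 0.52 in ONOFF mice (95% interval -0.05 to 1.09, adjusted p = 0.203). Ccr2, the receptor of recruited monocytes, had medians of 42.9 to 48.4. Of 16 macrophage and monocyte markers 3 rose with TAC in ONOFF mice, Adgre1 (0.64), Itgam (0.66) and Cd14 (0.59), and none was called in Con mice. In ONOFF mice 0 of the 16 were called lower, and their log2 changes ran from -0.75 to 0.71. Over all genes TAC called 10.7% higher and 10.6% lower in ONOFF mice, and 5.78% in Con mice. Ccr7, Cxcr2, Cxcr3 and Cxcr5 had condition medians no higher than 12.3.

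Xcr1, the receptor of cross-presenting dendritic cells, was lower in ONOFF than in Con mice after TAC. Its level was 7.3 to 52.6 in Con TAC (median 16.0) and 0 to 17.8 in ONOFF TAC libraries (median 6.77). Every ONOFF TAC library lay below the Con TAC mean of its sex, and the ranges overlapped. The log2 difference was -1.51 (SE 0.44, adjusted p = 0.0267). Without the 2 Xist-poor Con TAC libraries, one of which held the value of 52.6, the adjusted p was 0.101. It also passed 0.05 in 5 omissions of 1 ONOFF TAC library, up to 0.0676 without M 4. After sham the genotypes differed by -0.56 (adjusted p = 0.802).

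Dendritic cell markers, a list drawn up after the values were seen, had 0 higher and 1 lower of 9 for ONOFF against Con after TAC. Their median log2 difference was -0.65, and 3.82% of all genes were called lower. The lower gene was Flt3 (-1.64, adjusted p = 0.0109), the receptor of the dendritic growth factor, at 0 in 3 of 40 libraries. Clec9a, which marks the same dendritic cells as Xcr1, was not called in that comparison. It was at 0 in 4 libraries with a median of 4.23. The summed level, most of it from genes that other cells also express, was 2158 to 4128 in Con TAC and 1371 to 3478 in ONOFF TAC libraries. The part of dendritic cell number in the Xcr1 and Ccl22 differences was not tested. Xcr1 lies between Cxcr6 and Ccr1 on chromosome 9, and these 3 adjacent receptor genes differed by -1.51, 1.34 and 0.42 in ONOFF against Con mice after TAC.

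The atypical receptors Ackr2 and Ackr4 were both higher in ONOFF TAC than in the other conditions. Ackr2 scavenges inflammatory CC chemokines, Ccl11 and Ccl22 among them. Its level was 47.7 to 166 in Con Sham, 55.3 to 176 in Con TAC, 51.0 to 111 in ONOFF Sham and 89.9 to 231 in ONOFF TAC libraries, with medians of 79.8, 74.9, 79.6 and 139. The first 3 conditions had much the same span and the ONOFF TAC range began above their medians. TAC in ONOFF mice raised Ackr2 1.83-fold (log2 0.87, SE 0.203, adjusted p = 0.00131, 10 of 10 libraries). After TAC it was 1.64-fold higher in ONOFF than in Con mice (log2 0.71, adjusted p = 0.0227, 9 of 10 libraries), a call lost in 4 of 40 omissions of 1 library with adjusted p of up to 0.0557.

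Ackr4 scavenges Ccl19, Ccl21 and Ccl25 and shapes their gradients near lymphatics. Its level was 31.8 to 141 in Con Sham, 39.1 to 202 in Con TAC, 47.4 to 146 in ONOFF Sham and 88.8 to 273 in ONOFF TAC libraries, with medians of 99.4, 91.0, 112 and 188. As with Ackr2, only the ONOFF TAC median stood apart. TAC in ONOFF mice raised it 1.78-fold (log2 0.84, SE 0.222, adjusted p = 0.00494, 9 of 10 libraries), and ONOFF exceeded Con mice 1.96-fold after TAC (log2 0.97, adjusted p = 0.00393, 10 of 10 libraries). Con mice had TAC effects of 0.04 for Ackr2 and 0.03 for Ackr4. The differences between TAC effects were 0.84 and 0.81, with adjusted p of 0.197 and 0.273.

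Ackr4 overlaps Acad11 on the opposite strand. Acad11 fell by 0.28 on the log2 scale with TAC in ONOFF mice (adjusted p = 0.00777), opposite to Ackr4. Of 6 lymphatic endothelial markers 2 were higher in ONOFF than in Con mice after TAC, Reln (1.16, adjusted p = 0.012) and Pdpn (0.40, adjusted p = 0.0429). The summed level was 3116 to 4703 in Con TAC and 3531 to 5703 in ONOFF TAC libraries. Much of that sum came from Prox1 and Flt4, with medians of 2242 and 900 over all libraries, beside 219 for Reln and 175 for Pdpn. Of 12 fibroblast markers 5 were higher and 1 lower, with sums of 112470 to 186529 and 143615 to 187749. Over all genes, ONOFF against Con after TAC called 4.14% higher and 3.82% lower. Of 12 endothelial markers none was called in any of the 5 comparisons. The part of these cells in the Ackr2 and Ackr4 results was not tested. Ackr3 and Ackr1 were not called, and Ackr1 had medians of 4.63 to 8.53.

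Genes that act with the chemokines were read from lists chosen with earlier results of these data known. Of 39 genes of receptor signalling, 6 rose and 3 fell with TAC in ONOFF mice, with a list median of 0.10 beside 0.01 over all genes. That comparison called 21.2% of all genes (10.7% higher and 10.6% lower). Grk5, a kinase that desensitizes G protein-coupled receptors, rose by 0.87 on the log2 scale (adjusted p = 4.54e-10). Its TAC effect differed between genotypes by 0.81 (adjusted p = 0.000373), the 1 call in that list for the difference. Rgs2, an inhibitor of G protein signalling, fell in Con (-0.99) and in ONOFF mice (-0.89), and it was the 1 call of the list in Con mice. Elmo1, which couples chemokine receptors to cell movement, rose by 0.68 in ONOFF mice (adjusted p = 8.02e-05), and Gnai2, an inhibitory G protein subunit, rose by 0.23 (adjusted p = 0.0027).

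ONOFF against Con mice after TAC called 7.97% of all genes, and in the same list 3 higher and 1 lower gene. These were Grk5 (0.58), Elmo1 (0.52), Ptk2b (0.76), a kinase activated by calcium, and Rgs18 (-1.15), which is also one of the platelet markers above. Ptk2b was also higher after sham (0.93, adjusted p = 0.0221), the 1 call of the list there.

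Of 15 other chemoattractants and receptors, 3 rose and 1 fell with TAC in ONOFF mice, where 21.2% of all genes were called. Gpr35 rose by 1.45 (adjusted p = 2.72e-05), as it did in Con mice by 1.00 (adjusted p = 0.0108). Mif, a cytokine that can act on Cxcr2 and Cxcr4, rose by 0.55, and Cmklr1, the chemerin receptor, by 0.61 (adjusted p = 0.00144 and 0.0033). Ccrl2, which presents chemerin, fell by 0.64 on the log2 scale (adjusted p = 2.12e-05) and was also lower in ONOFF than in Con mice after TAC (-0.44, adjusted p = 0.00805).

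Of 20 genes of chemokine cleavage and heparan sulfate presentation, 4 rose and 1 fell with TAC in ONOFF mice and none was called in the other comparisons by limma. TAC in ONOFF mice called 21.2% of all genes. The proteases Mmp14 and Mmp2, which can clip chemokines such as Cxcl12 and Ccl7, rose by 0.56 and 0.46 (adjusted p = 0.00289 and 0.00861), the syndecan Sdc3 rose by 0.37 (adjusted p = 0.00174), and Mmp9 fell by 1.01 (adjusted p = 0.00151) on the log2 scale. Of 23 inducers of chemokines, 7 rose and 1 fell in that comparison. Tnfrsf1b, a receptor of tumour necrosis factor, rose by 0.60, Ifngr1, an interferon gamma receptor chain, by 0.31, and Tlr2, a receptor for bacterial lipoproteins, by 0.73, while Ifngr2, the partner chain, fell by 0.33 (adjusted p of 2.5e-05 to 0.00408).

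Across the 44 chemokine genes, 32 had a positive log2 change with TAC in Con mice, beside 8861 of the 16395 genes tested, and the family median was 0.19 beside 0.02. With TAC in ONOFF mice 25 were positive, beside 8354 of all genes (median 0.07 beside 0.01). For the difference between TAC effects 15 were positive, beside 7886 of all genes (median -0.17 beside -0.01). These counts used all 40 libraries. In the 3 zero-rich Con Sham libraries 6 to 11 of the 44 genes were at 0, against 1 to 6 in the other libraries. Whether those zeros shaped the counts was not tested. Differences of these effects between the sexes called 0 of 44 genes by limma in each of 4 comparisons, with 1 or 2 at an unadjusted p below 0.05, and 0 of 16395 genes overall.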

How the data were processed

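The table held 40 libraries from left ventricle, 5 in each of 8 groups of genotype, surgery and sex. The submitters' processing notes list FastQC 0.11.7, MultiQC 0.8, STAR 2.7.3a, Salmon, R 4.3.1, DESeq2 and the build GRCm39, with no settings. The authors deposited normalized count signal, from which neither whole reads nor depth can be had.

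A minimum of 10 in at least 5 libraries left 16395 genes. Using limma 3.58.1 (R 4.3.3), the means of the 8 groups were fitted on log2(value + 1), with a trend and robust variances, after a test on simulated data. Two-sided p-values were adjusted by Benjamini-Hochberg over all genes of a contrast. A library supports a change when it lies beyond the mean of its sex in the reference condition.

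Genes with full values were those called in any of the 5 comparisons and the gene with the smallest p in each role group. Ranges cover the rest, up to 4 genes are named per list, and other genes, such as overlapping and neighbouring ones, were chosen after their values were seen. The members and lists were chosen with earlier results of these data known.

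Alternatives included scaling by TMM (trimmed mean of M values), quantile normalization, a pseudocount of 10 and a mean of at least 50. Sequences and gene order came from GENCODE M21 and RefSeq on GRCm38, another build than that of the counts. The values of 1 member are not reported here. Figures used matplotlib 3.10.9. The labels do not say that replicate numbers pair mice or what else replicates share, so p-values measure only the spread between these libraries.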

Additional observations from a re-analysis of the deposited data

Results flagged for a closer look

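Among the 11 named chemokine genes in 4 conditions (44 groups of 10 libraries), 10 held a library far from the other 9. The rule's rate of about 1 in 20 groups assumes normally distributed values. It was applied to untransformed counts, and all 10 flagged libraries were high, so that rate gives no measure of chance here. The gap from that library to its nearest neighbour was large against the range of its group.

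Ccl11 was high in Con TAC M 5 (145), ONOFF Sham M 4 (307) and ONOFF TAC F 1 (72.2). Without ONOFF TAC F 1 the difference between TAC effects on Ccl11 passed the threshold. Ccl22 was high in Con Sham F 3 (35.3), one of the 3 zero-rich libraries, and in ONOFF TAC F 2 (11.7). Ppbp was high in Con Sham F 4 (262) and ONOFF Sham M 4 (358), and platelet marker sums were 1042 and 1349 there. Xcr1 (52.6) and Cx3cl1 (989) were high in Con TAC F 2, one of the Xist-poor libraries. Ackr2 was high in Con TAC F 3 (176), the other Xist-poor library.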

How the results depend on the processing

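Of 16 calls on the named genes, 10 held under all 13 alternatives that could test them and all 40 omissions of 1 library, and none changed direction. The 4 calls of Ccl22, Xcr1 and Cxcr6 could not be tested with a mean of at least 50. Leaving out libraries with many zeros, without Xist or both was listed with earlier results of these data known. The cause of each change below was not tested.

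With TAC in Con mice the count of 2 became 5 with library weights, and omissions gave 1 to 4. For TAC in ONOFF mice the count of 6 became 8 with library weights, which added Ccl22 and Xcr1 (adjusted p = 0.0334 and 0.0486), and omissions gave 5 to 7. After sham, the 1 genotype call (Ccl27a) became 0 without a filter, with only the groups compared, with the replicate block, without the 3 zero-rich libraries and without the 5 libraries, and omissions gave 0 to 1. After TAC, the 7 genotype calls became 4 with a mean of at least 50, where fewer genes were tested, and omissions gave 5 to 7. The difference between TAC effects had 0 calls, 1 with quantile normalization, 2 with library weights (Ccl11 and Ccl22), 1 without the 5 libraries, and 0 to 1 in omissions. The 4 sex differences had 0 calls in every setting run.

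Over all genes, TAC in Con mice called 948, 495 with only the groups compared and 581 without the 2 Xist-poor libraries. Same-numbered libraries of different groups had a mean correlation of 0.0111 (140 pairs) and 8 of 40 libraries correlated best with their own number. The replicate block moved no other family count by more than 1 call. Library names also carry a number shared by libraries of different groups, whose meaning is not given. With it as a random block (correlation 0.0563) all 16 calls on the named genes held. The all-gene count for the difference between TAC effects went from 73 to 32. Depth is unknown, so low genes such as Ccl22 carry no counting interval.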
